A study of Mus musculus with 4 samples.

Results

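The cells described here are the 75 tumor cells with the highest share of RNA in 7 genes that are known targets of the hypoxia response, out of 301 ranked cells of a mouse mammary tumor, 425 called cells of that library and 1905 called cells of the series. The series holds 4 single-cell RNA libraries, 1 each, of cells sorted as CD45- and HER2+. All mice were MMTV-neu on the FvB background and carry a rat Erbb2 (HER2, neu) transgene driven in the mammary epithelium by the mouse mammary tumor virus promoter. The primary tumor library came from mice over 20 weeks of age with tumors. The early lesion library, from mammary glands of mice aged 14 to 18 weeks without palpable tumor, serves here as the comparison library, and the lung libraries of both stages are used only for the levels of the ranking genes. No mouse in the series lacks the transgene, and the number of mice behind each library is not given.

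Cells were kept with at least 534 unique molecular identifiers (UMIs, each 1 captured RNA molecule), at least 250 detected genes and less than 1% mitochondrial UMIs. The cells were chosen by their own counts: they were ranked by the share of their UMIs in Aldoc, Aldoa, Egln3, Car9, Pfkp, Pgk1 and Bnip3. The top 25% (75 cells) were set against the bottom 25% (75 cells), with 76 upper middle and 75 lower middle cells between them, which gives 4 rank groups. The median share was 1.17% in the top group (0.877% to 3.38%), 0.674% in the upper middle group, 0.380% in the lower middle group and 0.176% in the bottom group (0% to 0.284%). The last cell inside the top group held 5 ranking UMIs of 570 (0.877%) and the first cell outside it 25 of 2864 (0.873%), with no gap at the border. The last cell inside the bottom group lay at 0.284% and the first outside it at 0.286%. Depth was close in both groups, with a median of 2040 UMIs and 1020 genes per cell in the top group and 1825 UMIs and 822 genes in the bottom group. The mitochondrial share was low in both, at a median of 0.392% and 0.366%.

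In hypoxia, the prolyl hydroxylases that mark the alpha subunits of hypoxia-inducible factor (HIF) for degradation slow down, HIF accumulates, and it binds a short core, ACGTG or GCGTG, at its target genes. Those targets include most enzymes of glycolysis, the carbonic anhydrase Car9 that exports acid, the mitophagy receptor Bnip3, and the hydroxylase Egln3, which feeds back on HIF itself. Several of these genes, the aldolases and other glycolytic enzymes first, also respond to growth factor signalling and to MYC, so their level is not a readout of oxygen alone. HER2 signalling is known to raise glycolysis in mammary cells.

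The label "hypoxia-high" cannot be tested with the ranking genes themselves, since they chose the cells. Aldoc and Aldoa, the aldolases that split fructose bisphosphate, supplied 90.1% of the ranking UMIs in the top group. Car9, the most specific marker of hypoxia among the 7, had 8 and 6 UMIs, too few to show whether it differed. The cells are therefore named after the genes that carried the ranking, aldolase-high (top group) and aldolase-low (bottom group), from here on.

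Promoters of 5 ranking genes are shown first, since the HIF core is a feature often sought at such targets: the aldolases, which carried the ranking, and Egln3, Pgk1 and Bnip3, which supplied 5.03%, 2.97% and 1.03% of the ranking UMIs of the top group. Sequences are from RefSeq (GRCm38.p6), 250 bases before to 50 after the annotated start, 5′ to 3′ on the strand of the gene, with ACGTG or GCGTG on either strand (CACGT or CACGC where it lies on the other strand) in capitals. Aldoc (chr11:78322823-78323122, plus strand) held 3 matches, the window at the first annotated start of Aldoa (chr7:126800398-126800697, minus strand) 0, Egln3 (chr12:54203825-54204124, minus strand) 1, Pgk1 (chrX:106186850-106187149, plus strand) 2 and Bnip3 (chr7:138909457-138909756, minus strand) 5, of which an overlapping pair reads CACGTG.
Aldoc: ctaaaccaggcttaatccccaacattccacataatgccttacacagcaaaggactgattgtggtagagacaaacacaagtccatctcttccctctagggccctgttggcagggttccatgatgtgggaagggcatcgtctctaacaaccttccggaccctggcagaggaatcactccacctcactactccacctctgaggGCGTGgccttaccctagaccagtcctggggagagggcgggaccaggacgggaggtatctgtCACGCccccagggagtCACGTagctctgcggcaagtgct
Aldoa: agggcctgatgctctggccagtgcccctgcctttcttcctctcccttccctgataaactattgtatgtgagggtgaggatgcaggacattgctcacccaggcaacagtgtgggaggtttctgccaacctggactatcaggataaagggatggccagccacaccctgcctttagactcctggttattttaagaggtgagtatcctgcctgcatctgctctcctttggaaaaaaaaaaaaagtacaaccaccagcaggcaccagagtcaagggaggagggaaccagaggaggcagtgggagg
Egln3: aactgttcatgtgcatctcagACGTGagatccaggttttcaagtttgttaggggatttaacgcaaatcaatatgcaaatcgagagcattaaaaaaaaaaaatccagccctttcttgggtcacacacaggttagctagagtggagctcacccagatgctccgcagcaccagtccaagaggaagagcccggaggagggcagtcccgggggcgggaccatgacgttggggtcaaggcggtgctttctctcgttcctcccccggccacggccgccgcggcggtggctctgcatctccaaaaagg
Pgk1: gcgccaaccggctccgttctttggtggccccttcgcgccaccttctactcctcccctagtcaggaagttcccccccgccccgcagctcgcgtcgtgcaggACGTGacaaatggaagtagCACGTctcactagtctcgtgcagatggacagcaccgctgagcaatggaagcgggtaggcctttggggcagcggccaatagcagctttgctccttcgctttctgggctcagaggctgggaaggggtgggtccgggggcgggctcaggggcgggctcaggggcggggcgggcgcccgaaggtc
Bnip3: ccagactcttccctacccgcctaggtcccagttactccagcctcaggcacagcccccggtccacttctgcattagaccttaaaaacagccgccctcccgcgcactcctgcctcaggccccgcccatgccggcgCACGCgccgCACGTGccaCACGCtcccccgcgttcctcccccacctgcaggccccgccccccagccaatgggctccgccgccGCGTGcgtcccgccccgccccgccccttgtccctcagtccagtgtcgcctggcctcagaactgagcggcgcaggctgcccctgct
The window of Car9 held 1 match and that of Pfkp 4, so 6 of the 7 ranking genes had at least 1. For Aldoa, 0 matches says only that these letters are not within the window shown. The core is common: 43.8% of 27025 promoters, 1 for each gene at its first listed start, hold it. So do 68.9% of the 1814 promoters found for the genes compared below. Of the genes shown, Aldoc has 2 listed starts and Aldoa 3, and only the first was searched.

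The ranking genes are described, not tested, since they chose the cells. Aldoc (chr11:78322968-78327781, plus strand, mm10) had 1302 UMIs in aldolase-high cells, 622 in upper middle, 387 in lower middle and 144 in aldolase-low cells, or 6833, 3788, 2002 and 881 CPM (counts per 1000000 UMIs of the group). It was found in 74 of 75 aldolase-high cells, with a median of 15 UMIs a cell, and in 51 of 75 aldolase-low cells, with a median of 1. Aldoa (chr7:126795234-126800751, minus strand) had 884, 376, 239 and 100 UMIs in the same order of groups, or 4639 CPM in aldolase-high and 612 CPM in aldolase-low cells. Egln3 had 122, 49, 65 and 19 UMIs, the glycolytic kinase Pgk1 72, 31, 37 and 17, and Bnip3 25, 7, 10 and 1. For these 3 the top group stood above the rest, and the upper middle group was not above the lower middle one. Car9 had 8, 7, 5 and 6 UMIs, and the platelet-type phosphofructokinase Pfkp 13, 9, 5 and 5.

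**Figure D1:**
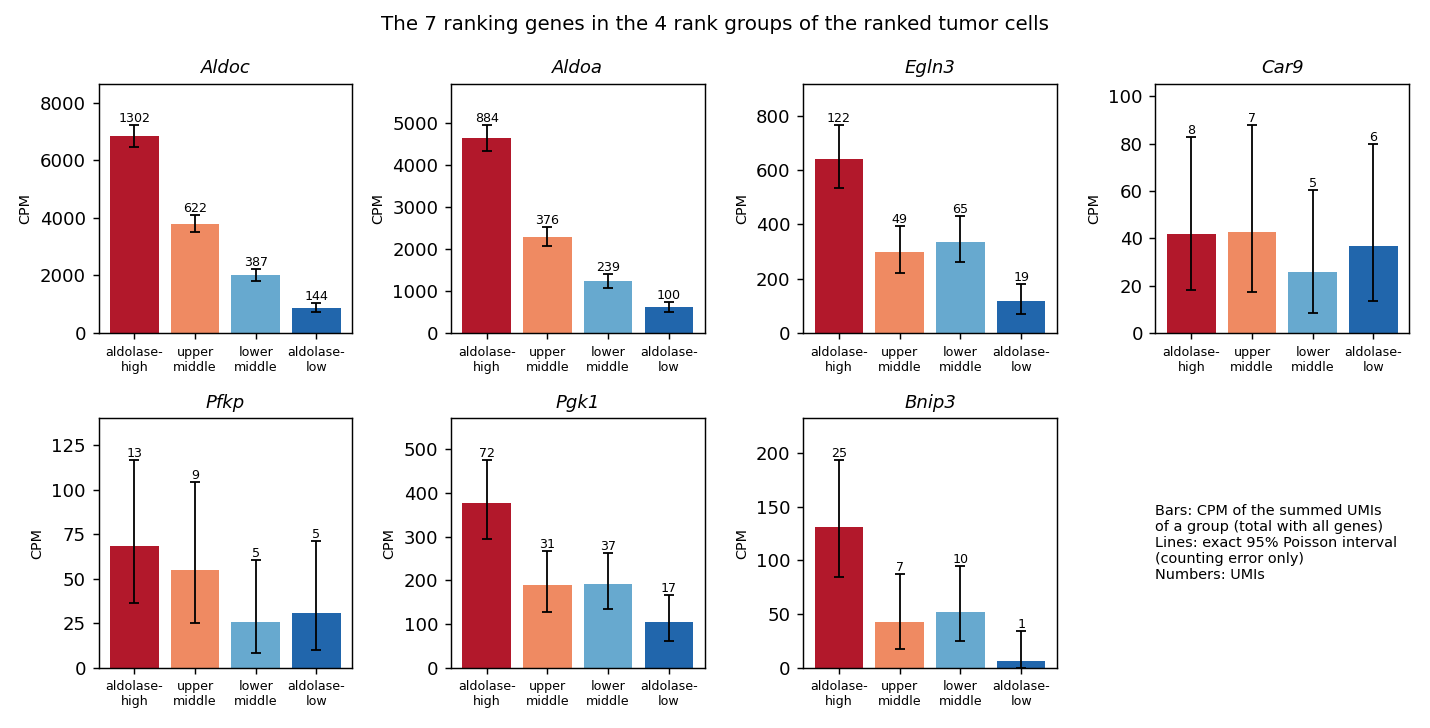
CPM of the 7 ranking genes in the 4 groups of the ranked tumor cells, from aldolase-high at the left to aldolase-low at the right, with exact 95% Poisson intervals and the UMI number over each bar. The aldolases step down through all 4 groups, Egln3, Pgk1 and Bnip3 stand out in the first, and Car9 is level at 8, 7, 5 and 6 UMIs.

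To give each ranking gene a value that its own counts did not choose, the cells were ranked again 7 times, each time by the other 6 genes. With 1 library, no comparison between cells allows a test. Intervals are exact 95% intervals for counting error, treat each UMI as independent, and leave out the spread between cells and between mice. Ranked by the other 6, Aldoc had 895 UMIs in the top and 325 in the bottom group (log2 ratio 1.23, 1.05 to 1.42). Aldoa had 590 and 251 UMIs (0.98, 0.77 to 1.20). Each aldolase was thus about as much higher by the other genes' ranking as Egln3 (97 and 36 UMIs, 1.25, 0.70 to 1.86) and Pgk1 (66 and 25 UMIs, 1.21, 0.54 to 1.95). Bnip3 had the highest ratio on few counts (24 and 3 UMIs, 2.59, 1.06 to 5.16). The intervals of Car9 (7 and 7 UMIs, -0.19, -1.93 to 1.55) and Pfkp (12 and 7 UMIs, 0.51, -0.92 to 2.13) included a log2 ratio of 0, and no difference was detectable at this depth. When the UMIs of each cell were split at random and 1 part ranked the cells, the 7 genes together were higher in the other part by a log2 ratio of 2.13 (1.92 to 2.35), with 1066 UMIs in the top and 214 in the bottom group.

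Membership of the top group changed with the genes and UMIs that ranked the cells. With the UMIs of each cell split at random, ranking by 1 part kept 57 of the 75 cells. Between the rankings by each part, 44 top cells were shared, and 5 moved from the top to the bottom group. How much of the changes below goes beyond such counting error was not tested. Ranking by the 5 marker genes Aldoc, Aldoa, Egln3, Car9 and Pfkp kept 73 of the 75 cells, ranking without Aldoa 54 and without Aldoc 49. Ranking without both kept 36, and 12 of the 75 were then placed in the bottom group. Of the 75 aldolase-high cells, 21 had UMIs of 2 of the 7 genes, 21 of 3, 20 of 4 and 13 of 5 or more. Of the aldolase-low cells, 5 had none, 19 had 1 gene, 34 had 2, and 17 had 3 or more.

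Free RNA gives UMIs to every droplet, and in this library it was rich in the ranking genes. In barcodes of 1 to 50 UMIs, taken to hold no cell, the 7 genes made up 0.511% of UMIs, below the whole range of the aldolase-high cells (lowest 0.877%) and above the whole range of the aldolase-low cells (highest 0.284%). Aldoc stood at 2746 CPM in free RNA, between 6833 CPM in aldolase-high and 881 CPM in aldolase-low cells. Its part in the values was not tested.

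Luminal markers were found in both groups, at a summed level below that of free RNA. The 9 luminal markers (Epcam, keratins, claudins and others) summed to 575 UMIs (3018 CPM) in aldolase-high and 423 UMIs (2588 CPM) in aldolase-low cells, against 3612 CPM in free RNA. At least 1 such UMI was found in 69 of 75 cells of each group, and since free RNA holds these markers too, such UMIs alone do not set the cells apart from it. The defining markers of T and NK cells, B cells, neutrophils and erythrocytes were at 0 UMIs in both groups. Macrophage markers had 0 UMIs in aldolase-high and 2 in aldolase-low cells, fibroblast markers 1 and 0, pericyte markers 1 and 0, basal and myoepithelial markers 2 and 0, and adipocyte markers 0 and 1. Of 7 endothelial markers, 6 were at 0 in both groups, and Pecam1 alone gave 15 UMIs in aldolase-high and 10 in aldolase-low cells. No barcode of a ranked tumor cell was a cell barcode in another library.

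On all other genes, 2380 had at least 20 counts over both groups and were compared, with CPM taken over the total without the 7 ranking genes and 0.5 counts added to each sum. A gene was called at a 2-fold ratio or more with an interval that excludes a ratio of 1. In aldolase-high cells 171 genes (7.18%) were called higher and 128 (5.38%) lower, around a median log2 ratio of 0.10. With the groups scaled to the median ratio of all genes, which shifts every log2 ratio down by 0.11, the split was 122 higher and 151 lower.

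Glycolysis set the aldolase-high cells apart beyond the genes that ranked them. Of 24 members of the glycolytic HIF target list, 10 had enough counts, and their median log2 ratio was 1.33. Of these 10, 8 were called higher, against 7.18% of all compared genes, and 0 lower. With no minimum count, 9 of 20 detected members were called higher, against 3.05% of all detected genes. The list was chosen with results of these data known, so its count describes the cells and is no independent support for the label. Pkm, pyruvate kinase, had 360 UMIs in aldolase-high cells, against 103 in aldolase-low cells (log2 ratio 1.59, 1.28 to 1.93), and was found in 66 and 35 of 75 cells. Its level was 1914 CPM in aldolase-high, 1091 in upper middle, 976 in lower middle and 631 in aldolase-low cells. The 2 middle groups were close, on 178 and 188 UMIs. Free RNA held 1160 CPM of Pkm, above both middle groups, and its part was not tested. Pfkl, the liver-type phosphofructokinase, had 117 and 28 UMIs (1.84, 1.25 to 2.51), and Gpi1, glucose-6-phosphate isomerase, 92 and 22 (1.83, 1.18 to 2.60).

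Enzymes before and after the aldolase step were higher. Hexokinase Hk1 had 52 UMIs in aldolase-high and 15 in aldolase-low cells (1.55, 0.74 to 2.52). Lactate dehydrogenase Ldha had 300 and 103 (1.33, 1.01 to 1.67), enolase Eno1 405 and 140 (1.32, 1.05 to 1.61), and Gapdh 242 and 100 (1.07, 0.73 to 1.42). Ugp2, on the list but not a step of glycolysis, makes UDP-glucose for glycogen and had 39 and 16 (1.05, 0.21 to 2.02). The 2 not called lay just under 2-fold: Pgam1, phosphoglycerate mutase, at 104 and 45 UMIs (0.99, 0.49 to 1.54), and the triose isomerase Tpi1 at 174 and 76 (0.98, 0.59 to 1.40). With median-ratio scaling, 6 of the 10 were called higher. Ranked without Aldoa 3 were called, and without both aldolases 1, with medians of 0.83 and 0.54. Counts of the near-identical copies Aldoart1 (37 and 5 UMIs), Eno1b (77 and 29) and Pgk1-rs7 (18 and 3) were also called higher, but reads of Aldoa, Eno1 and Pgk1 can fall on them, so they are not separate evidence.

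HIF targets outside glycolysis were higher in part. Of 48 listed, 12 had enough counts, 4 were called higher, against 7.18% of all compared genes, and 0 lower, against 5.38%, with a median log2 ratio of 0.73. With no minimum count, 6 of 35 were called higher, against 3.05%. The metallothioneins, small proteins that bind zinc and copper, led them: Mt1 had 236 UMIs in aldolase-high and 60 in aldolase-low cells (1.76, 1.36 to 2.20) and Mt2 52 and 5 (3.05, 1.86 to 4.85). Metallothioneins also respond to metals and glucocorticoids. Mt2 was found in 10 and 4 cells only, and 1 cell held 23.1% of its aldolase-high UMIs. The repressor Bhlhe40 had 22 and 6 UMIs (1.59, 0.32 to 3.26) and Errfi1, an inhibitor of ERBB receptor kinases, 56 and 16 (1.57, 0.78 to 2.50). Bnip3l, the sister gene of Bnip3, had 57 and 26 (0.91, 0.23 to 1.66), below the threshold. Of the HIF pathway's own regulators, 3 of 11 had enough counts and none was called, among them the hydroxylase Egln2 (18 and 10 UMIs, 0.61, -0.55 to 1.92).

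**Figure D2:**
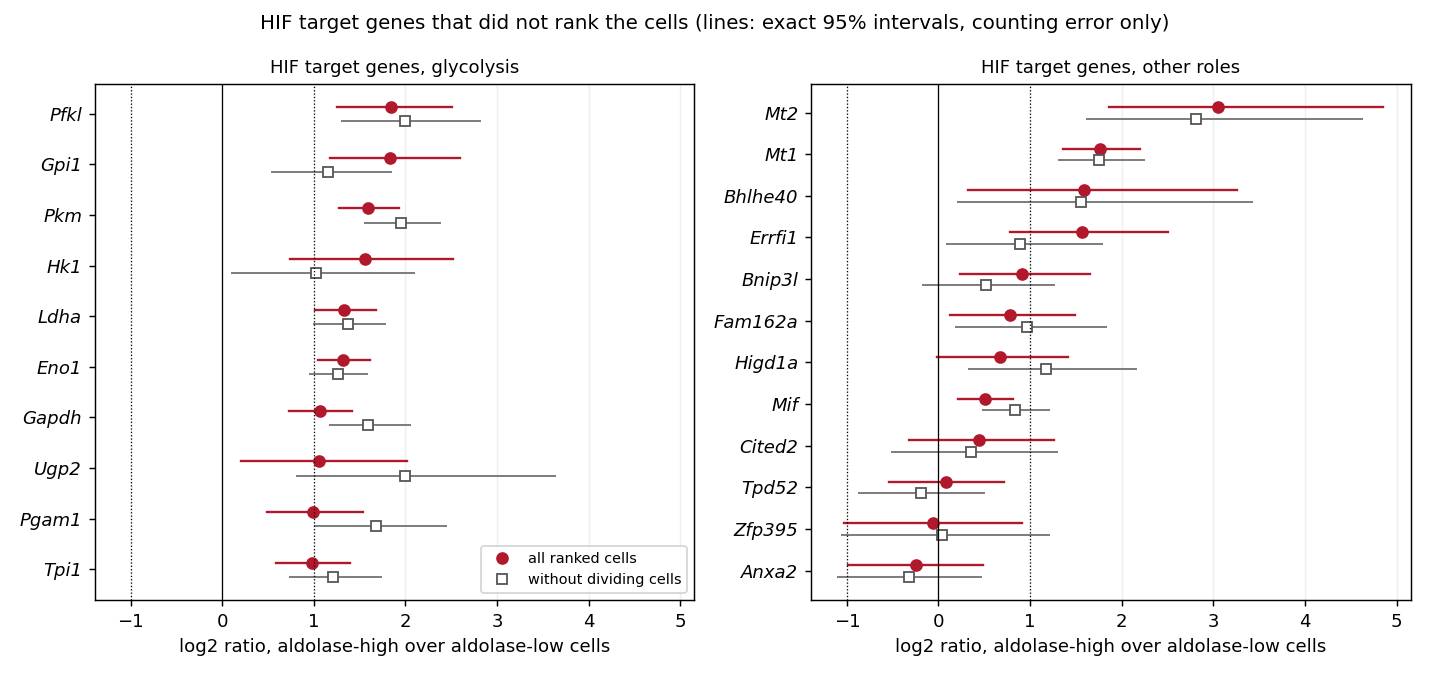
Log2 ratio of aldolase-high over aldolase-low cells for the 22 HIF targets with enough counts that did not rank the cells, with exact 95% intervals, in all ranked cells (filled circles) and without dividing cells (open squares); dotted lines mark 2-fold. All 10 genes of the glycolytic list lie right of 0 in both, and 10 of 10 reach 2-fold without dividing cells.

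Mitochondrial metabolism differed less. Among TCA cycle and pyruvate entry genes, 3 of 18 were called higher and 0 lower (median 0.59): the pyruvate dehydrogenase subunits Pdhb (25 and 8 UMIs, 1.38, 0.24 to 2.80) and Pdha1 (36 and 14, 1.13, 0.23 to 2.16), and Idh3b (31 and 13, 1.02, 0.07 to 2.11). All 3 reached 20 counts in the aldolase-high group alone, so the minimum itself favoured that direction. The share over all compared genes was 7.18%. With no minimum count, 3 of 23 were called higher, against 3.05% of all detected genes. The count was 1 of 18 with 5 added counts or with the ranking by the 5 marker genes. It was 1 of 19 between the top and bottom 100 cells and 0 of 19 with Aldoa left out of the ranking. Of 55 nuclear-encoded respiratory chain genes, 1 was called higher, the ATP synthase subunit Atp5b (256 and 108 UMIs, 1.04, 0.71 to 1.38), and 0 lower, with a median of 0.05. None of these genes was called lower in aldolase-high cells. Plin2, which coats lipid droplets, had 210 UMIs in aldolase-high and 77 in aldolase-low cells (1.24, 0.86 to 1.64).

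Cell division was the other contrast, with larger ratios than glycolysis. The 28 G2 and mitosis genes summed to 861 CPM in aldolase-high, 1772 in upper middle, 3937 in lower middle and 10242 in aldolase-low cells, with 2305 CPM in free RNA. With no minimum count, 25 of the 28 were called lower in aldolase-high cells, against 2.39% of all detected genes. At the minimum of 20 counts 17 remained and all 17 were called lower, against 5.38% of all compared genes, but 14 of them reached 20 counts in the aldolase-low group alone, so for these the minimum itself favoured that direction. Their median log2 ratio was -4.85 with 0.5 counts added, and -3.75 with the 6 members that had 0 UMIs in aldolase-high cells taken at 3 counts. Ube2c, the ubiquitin-conjugating enzyme of the anaphase-promoting complex, had 2 UMIs in aldolase-high cells, against 113 in aldolase-low cells (-5.71, -9.09 to -4.14). Birc5 (survivin) had 1 and 56 UMIs (-5.44, -11.34 to -3.48). Cdc20, the activator of the anaphase-promoting complex, had 0 and 49 UMIs and was at least 18.8-fold lower against a floor of 3 counts. On the same floor cyclin Ccna2 (0 and 35 UMIs) was at least 13.5-fold lower and cyclin Ccnb1 (0 and 29) at least 11.1-fold lower. Outside the list, and named for being among the 12 lowest, the kinetochore genes Spc25 and Spc24 were called lower: Spc25 had 0 and 30 UMIs (at least 11.5-fold lower) and Spc24 1 and 46 (-5.16, -11.06 to -3.18).

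Genes of DNA synthesis were lower as well, but remained detectable. Of 9 S phase genes compared, 8 were called lower, against 5.38% of all compared genes, with a median of -1.88, and 6 of the 9 reached 20 counts in the aldolase-low group alone. With no minimum count, 11 of 23 were called lower, against 2.39%. Ranked without both aldolases, 0 of 3 were called (median 0.52), and 1 of 6 when that ranking was made within classes of depth (median -0.92). Rrm2, a ribonucleotide reductase subunit, had 3 UMIs in aldolase-high and 26 in aldolase-low cells (-3.13, -5.69 to -1.61), Dut 11 and 47 (-2.25, -3.40 to -1.33), Tyms 4 and 23 (-2.59, -4.72 to -1.18) and Tk1 4 and 20 (-2.39, -4.54 to -0.95).

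Counted by cell, dividing cells were sought as those with at least 2 UMIs over Mki67, Top2a, Cdk1, Ube2c, Birc5, Ccnb1 and Tk1. There were 0 of 75 in the aldolase-high group (exact 95% interval up to 4.80%, and 3 cells would make 4%), 5 of 76 in the upper middle, 15 of 75 in the lower middle and 28 of 75 (37.3%, 26.4% to 49.3%) in the aldolase-low group. Of the 48 such cells, 43 (89.6%) lay in the lower middle and aldolase-low groups, and the highest ranking share among them was 0.737%, under the 0.877% of the last aldolase-high cell. At least 1 UMI of these markers was found in 10 of 75 (13.3%) aldolase-high, 11 of 76 upper middle, 18 of 75 lower middle and 29 of 75 (38.7%) aldolase-low cells, with the 7 markers at 387 CPM in free RNA and 52.5 CPM in aldolase-high cells. Dividing cells were deeper than the rest, with a median of 2964.5 UMIs against 1856. With each cell thinned to 534 UMIs, the numbers were 0, 1, 6 and 14.

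**Figure D3:**
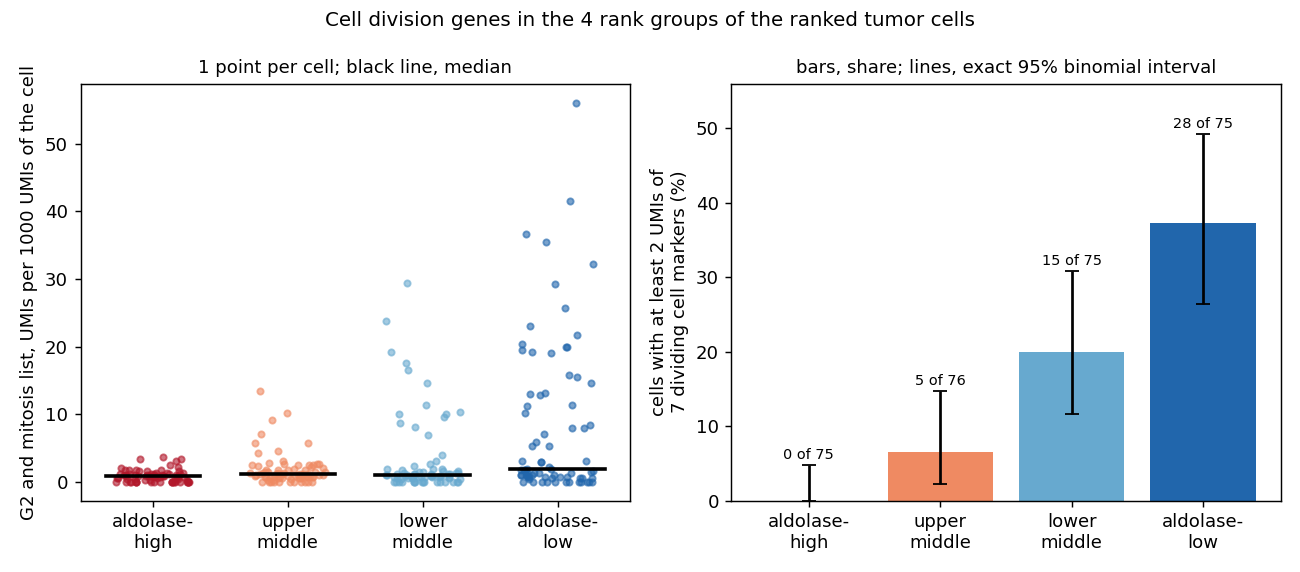
Left, UMIs of the G2 and mitosis list per 1000 UMIs of each tumor cell, by group from aldolase-high to aldolase-low, with the median as a black line; right, percent of cells with at least 2 UMIs of the 7 dividing cell markers, with exact 95% binomial intervals. The share is 0 of 75, 5 of 76, 15 of 75 and 28 of 75 cells, and the cells with the highest list levels sit in the aldolase-low group.

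Many mitotic genes share the cell cycle homology region (CHR), whose letters are TTTGAA and which is known to recruit repressor and activator complexes of the cell cycle. The promoters of the 2 lowest named genes are therefore shown with TTTGAA, or TTCAAA for the other strand, in capitals (RefSeq, GRCm38.p6): Ube2c (chr2:164769679-164769978, plus strand) and Cdc20 (chr4:118437294-118437593, minus strand).
Ube2c: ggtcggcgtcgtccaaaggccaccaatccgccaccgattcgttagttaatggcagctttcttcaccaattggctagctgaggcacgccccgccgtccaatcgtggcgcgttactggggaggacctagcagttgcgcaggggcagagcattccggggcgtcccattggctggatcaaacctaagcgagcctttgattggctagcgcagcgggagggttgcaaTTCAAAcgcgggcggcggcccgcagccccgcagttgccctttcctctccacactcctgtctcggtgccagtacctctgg
Cdc20: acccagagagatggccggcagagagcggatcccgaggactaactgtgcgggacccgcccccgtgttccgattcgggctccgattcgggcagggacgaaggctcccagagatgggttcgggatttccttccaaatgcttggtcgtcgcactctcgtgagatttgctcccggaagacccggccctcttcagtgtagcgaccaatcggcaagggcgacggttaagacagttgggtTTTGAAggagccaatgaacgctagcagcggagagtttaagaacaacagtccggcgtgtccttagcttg
Each holds 1 match, and the window of Ccnb1 holds 0. Over the list, 10 of the 14 compared G2 and mitosis genes with a promoter in the table had a match (71.4%). So had 35.4% of the 99 promoters found for genes called lower, 7.58% of the 132 found for genes called higher and 12.02% of the 1814 found for all compared genes. The share among all 27025 promoters of that length, 1 for each gene, was 18.1%. CCAAT, often found beside it, was in 66.7% of the promoters of genes called lower, in 42.4% of those called higher and in 41.2% of all compared. The HIF core behaved otherwise: 66.7% of the promoters of genes called higher held it, 67.7% of those called lower and 68.9% of all compared. A match is a match of letters in a window, counted on both strands, and no evidence of binding.

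Both contrasts share cells, so the comparison was repeated without the 48 dividing cells, an alternative chosen after seeing the data. Of the 253 cells left, 63 were ranked top and 63 bottom. Here 125 of 1931 genes were called higher (6.47%) and 20 lower (1.04%). All 10 compared genes of the glycolytic list were called higher, with a median of 1.48, among them Pkm (1.95), Pgam1 (1.67), Gapdh (1.59), Ldha (1.37) and Tpi1 (1.21). Of the other HIF targets, 4 of 12 were called higher (median 0.86), including Mt1 (1.76) and Mt2 (2.82). Of the 171 genes called higher at first, 146 had enough counts, all 146 kept the same sign and 74 were called again. Of the 128 called lower, 67 had enough counts and 14 were called again, which is in part built in, since the marker genes were used to leave the cells out.

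The contrast in division also appeared when neither aldolase ranked the cells, once depth was matched, in an alternative that was likewise chosen after seeing the data. Ranked by Egln3, Car9, Pfkp, Pgk1 and Bnip3 alone, the 75 top cells had a median of 1951 UMIs, against 927 in the 75 bottom cells, which all had 0 UMIs of these genes. The G2 and mitosis list was then level, at 2468 and 2519 CPM, and 8 top and 3 bottom cells were dividing. The contrast was thus not seen in this ranking. Ranked by the same 5 genes within 4 classes of cells by UMI total, median depth was 2006 UMIs in the 76 top and 1847.5 in the 76 bottom cells. In this ranking the list stood at 2311 CPM in the top and 6561 CPM in the bottom cells, and 7 and 14 cells were dividing. All 15 compared members were called lower (median -1.77), against 58 of all 2430 compared genes. The glycolytic list had 0 of 10 called higher in this ranking, against 74 of all 2430 compared genes, with a median of 0.64. Aldoc had 4266 and 2730 CPM. Of the 128 genes first called lower, 117 were compared and 35 called again. Of the 171 called higher, 164 were compared and 22 called again.

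Milk genes, which luminal cells express in lactation, did not follow 1 direction. Of 11 compared, 2 were called higher, Plin2 and Xdh (20 and 4 UMIs), against 7.18% of all compared genes, and 1 lower, against 5.38% (median -0.27). The casein Csn1s2a had 578 UMIs in aldolase-high and 1162 in aldolase-low cells (-1.21, -1.36 to -1.07), and 1 cell held 33.1% of the aldolase-low UMIs. Csn3 had 1652 and 2664 (-0.89, -0.98 to -0.81), while the iron carrier Trf had 1391 and 754 (0.68, 0.55 to 0.81). Free RNA held 13689 CPM of Trf, above 7394 CPM in aldolase-high and 4622 CPM in aldolase-low cells, and 10922 CPM of Csn3, between 8781 and 16329 CPM. The part of free RNA in the milk gene values was not tested. Without the dividing cells the ratio of Csn1s2a was 0.22.

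Some genes known to respond to ERK activity were higher in aldolase-high cells. Of 6 compared on the ERBB list, 3 were called higher, against 7.18% of all compared genes, and 0 lower (median 0.78): Ier3 (64 and 19 UMIs, 1.52, 0.79 to 2.37), the ERK phosphatase Dusp6 (82 and 35, 1.01, 0.44 to 1.64) and the transcription factor Etv1 (31 and 12, 1.13, 0.16 to 2.26). In Ier3, 1 cell held 32.8% of the UMIs. Ier3 and Etv1 reached 20 counts in the aldolase-high group alone, so for these the minimum itself favoured that direction. With no minimum count, 3 of 21 were called higher, against 3.05% of all detected genes (median 0.28). At the minimum of 20 counts, the number called fell to 1 with 5 added counts, with the ranking by the 5 marker genes and between the top and bottom 100 cells. With up to 20% mitochondrial UMIs the direction turned: 0 of 12 were called higher and 4 lower, with a median of -0.26. In that setting 401 of all 4406 compared genes were called higher and 494 lower. With cells ranked without both aldolases, Dusp6 (-0.50) and Etv1 (-0.41) were on the other side. Immediate early genes, which also respond to tissue dissociation, had 2 of 5 called higher, against 7.18% of all compared genes. These were Ier3 and Jund (54 and 16 UMIs, 1.52, 0.72 to 2.45). Of the 5, 4 reached 20 counts in the aldolase-high group alone, so for these the minimum itself favoured that direction. With no minimum count, 2 of 18 were called higher, against 3.05% of all detected genes. Jun had 22 and 11 UMIs (0.76, -0.31 to 1.99). The part of dissociation in these values was not tested.

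Stress programs gave scattered calls, 1 or 2 to a list, where 7.18% of all compared genes were called higher and 5.38% lower. Of the integrated stress response list, 1 of 7 was called higher, the stress-induced chromatin protein Nupr1 (55 and 17 UMIs, 1.46, 0.68 to 2.37), and 1 lower, Aars (8 and 18, -1.33, -2.79 to -0.10). Of 12 ER chaperone genes, 2 were called lower, Hspa5 (8 and 18, -1.33, -2.79 to -0.10) and Pdia3 (17 and 31, -1.05, -2.02 to -0.17). Of 12 NRF2 and redox genes, 1 was called higher, Sqstm1 (29 and 12, 1.03, 0.05 to 2.17), with a list median of 0.50, a share near that of all compared genes. None was called among 7 heat shock, 8 autophagy, 5 p53 and apoptosis, 2 iron handling, 2 interferon or 2 NF-kB genes.

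In the lists of epithelial identity, surface and structural genes at most 2 members were called, where 7.18% of all compared genes were called higher and 5.38% lower. Of 10 junction and keratin genes, Krt18 (222 and 88 UMIs, 1.12, 0.77 to 1.5) and the plakophilin Pkp3 (20 and 5, 1.69, 0.34 to 3.56) were called higher and 0 lower (median -0.21). All 8 compared MHC class I genes lay below the median of all genes, with a list median of -0.35, but none was called. Of 79 ribosomal protein genes none was called (median -0.09), and ribosomal protein messages made up 22.9% of aldolase-high and 24.7% of aldolase-low UMIs. In the acid and lactate transport list, 1 of 5 was called lower, the carbonic anhydrase Car2 (67 and 118 UMIs, -1.02, -1.48 to -0.58). Among 18 members of the actin cytoskeleton list, a share near that of all compared genes was called lower. It was S100a6 alone (7 and 27, -2.08, -3.60 to -0.92), with 0.66 where cells were ranked without both aldolases. In sterol and lipid synthesis, 1 of 5 was called lower, Idi1 (6 and 23, -2.06, -3.73 to -0.81). The nuclear RNA Malat1 had 30 UMIs in aldolase-high and 78 in aldolase-low cells (-1.57, -2.24 to -0.96), but 1 cell held 61.5% of the aldolase-low UMIs, and with equal weight for every cell the ratio was -0.17.

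Of the 12 highest genes by the rule for named genes, 6 belong to no list above and are no copy of a ranking gene. Bglap3, an osteocalcin-related gene, had 100 UMIs in aldolase-high cells, against 5 in aldolase-low cells (3.99, 2.85 to 5.77), but was found in 9 and 5 cells, and 1 cell held 66% of the 100. Dbp, a clock-controlled transcription factor, had 26 UMIs in 15 aldolase-high cells and 1 UMI in 1 aldolase-low cell (3.94, 1.89 to 9.85). Palmd had 46 and 7 (2.43, 1.35 to 3.90), the p53 cofactor Tbrg1 53 and 10 (2.14, 1.21 to 3.34) and the chromatin reader Ing4 24 and 3 (2.60, 1.08 to 5.17). The zinc finger gene Zscan26 had 20 and 1 UMIs (3.57, 1.47 to 9.49), but -1.20 with cells ranked without both aldolases. The 5 other than Bglap3 were spread over more cells, with at most 16.7% of the UMIs in 1 cell. The rest of the 12 lowest genes by that rule, which leaves out entries named Rik or Gm, act in mitosis: Cenpw, Nusap1, Cdca8, Cenpa and Aurka all had 0 UMIs in aldolase-high cells and 27 to 41 in aldolase-low cells. Among the entries left out, 2810417H13Rik had 0 UMIs in aldolase-high and 84 in 26 aldolase-low cells, with an interval that ended at -4.68, beyond the -4.14 of Ube2c.

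No cell of the early lesion reached the level of the aldolase-high cells. Its 1014 ranked cells had a median share of 0.0659% in the 7 genes, and 0 reached the 0.877% of the tumor's top group (exact 95% upper limit 0.363%, and 3 cells would make 0.296%). Over all ranked cells, the 7 genes were higher in the tumor by a log2 ratio of 3.11 (3.04 to 3.18). Aldoc had 3451 CPM in the tumor and 251 CPM in the lesion, Aldoa 2247 and 398, Egln3 358 and 18.1, and Pgk1 221 and 51.0. Car9 had 36.5 CPM (26 UMIs) in the tumor and 0 UMIs in the lesion. With 1 library per stage, stage cannot be told apart from library and mouse.

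The lesion cells were also ranked by the same 7 genes among themselves, where these genes stood at the level of free RNA: they made up 0.0745% of the UMIs of the ranked cells and 0.0801% of the free RNA of that library. The values below therefore describe a ranking at background. The lesion's top and bottom groups, 254 cells each, had a median of 4 and 0 ranking UMIs a cell and a median depth of 2751 and 1884.5 UMIs, so the ranking was much coarser than in the tumor. Of 5524 genes compared, 81 were called higher (1.47%) and 207 lower (3.75%). All 17 of the G2 and mitosis genes compared in the tumor were called lower in the lesion (median -1.98), and 39 of 254 (15.4%, 11.2% to 20.4%) top cells were dividing, against 117 of 254 (46.1%, 39.8% to 52.4%) bottom cells. Of the 10 genes of the glycolytic list none was called, and the median was 0.11, with Pkm at 0.15 (-0.13 to 0.44) and Ldha at 0.44 (0.22 to 0.65). The ranking genes were themselves little apart there: by the other 6, Aldoc had a log2 ratio of 0.57 (0.23 to 0.93), Aldoa 0.36 (0.08 to 0.64) and Egln3 0.02 (-1.10 to 1.20).

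Gene by gene, 43 of the 124 tumor genes called lower that had enough counts in the lesion were called lower there too. That is 34.7% of them, against 3.75% of all genes compared in the lesion, and 20.8% of the lesion's own. The 43 include all 17 compared G2 and mitosis genes. Of the 158 called higher and compared, 8 were called higher in the lesion (5.06%, and 9.88% of the lesion's own), against 1.47% of all genes. They were Aldoart1, Bglap3, Clic6, Fam174b, Foxi1, Nupr1, Pcmtd1 and Rbms2, a list short enough to name although most fall outside the rule for named genes. Foxi1, a transcription factor known from ion-transporting epithelial cells, had 40 UMIs in aldolase-high and 17 in aldolase-low cells in the tumor (1.0, 0.18 to 1.94), and 18 and 4 in the top and bottom groups of the lesion (1.72, 0.25 to 3.88). Clic6, a chloride channel family member, had 94 and 32 in the tumor (1.33, 0.76 to 1.98) and 36 and 2 in the lesion (3.55, 1.90 to 6.95).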

How the data were processed

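Per the labels' protocols, cells sorted as CD45- and HER2+ were loaded on 10x Chromium 3' v2 and sequenced. The deposited files hold raw counts: whole-number UMI counts per gene and barcode, with no normalization by the authors, and the mm10 build per the submitters' processing notes. Aligner, counter and annotation are not given in the sources used here. The libraries hold 3403140 UMIs (primary tumor), 6366768 (early lesion), 1070236 (late lung) and 743765 (early lung).

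The members and the gene lists were chosen with earlier results of these data known. A called cell has at least 250 genes, at most 20% mitochondrial UMIs and no fewer UMIs than the minimum of its library. That minimum is 0.1 times the 99th percentile among the top 3000 barcodes, but not under 500 (534 in the tumor, 911 in the lesion). Ranked cells have less than 1%. No doublet caller was run. The highest aldolase-high cell held 7222 UMIs and the highest aldolase-low cell 8991.

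UMIs were summed per rank group and scaled to CPM without the 7 ranking genes. Log2 ratios were taken after adding 0.5 counts, with exact 95% intervals from Poisson counts. Shares carry exact (Clopper-Pearson) intervals. Where 1 sum was 0, a lower bound of the fold uses 3 counts over the group. With 1 library per group there is no test, and intervals cover counting error only. Named genes were the 7 ranking genes, the 12 highest and 12 lowest genes ordered by the end of the interval that lies closer to a ratio of 1 (at 50 CPM, 2-fold, 1.5-fold with equal cell weight and without cells over 10000 UMIs, and in at least 5 cells of the higher group, leaving out mitochondrial, ribosomal protein, Gm, Rik and pseudogene entries), and up to 4 per list of 26 lists. Further members of a list, and genes said to be chosen after their values were seen, fall outside this rule. In all, 14 alternatives were planned and 3 were added after seeing the data.

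Gene positions are from GENCODE M21 (mm10, 1-based), promoters from RefSeq. The result for 1 gene that met a rule for a closer look is not reported here. The workflow was tested on simulated data. Software was Python 3.11.15 with numpy 2.4.6, scipy 1.17.1, pandas 2.3.3 and matplotlib 3.10.9.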

Additional observations from a re-analysis of the deposited data

How the results depend on the processing

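Of the 171 genes higher and 128 lower, the counts were within 1.5 times in the settings not named next. They were 42 and 31 in thinned cells, 74 and 64 with ranking and comparison on separate UMIs, 401 and 494 with up to 20% mitochondrial UMIs, 69 and 52 at 50 counts, 308 and 241 with no minimum, 74 and 14 without both aldolases, and 74 and 58 with that ranking within depth groups. With 5 added counts 104 were higher, without Aldoa in the ranking 84 were lower, and without dividing cells 20 were lower. Thinning, separate UMIs and higher minimums leave fewer genes or counts. The cause of the other changes was not tested. The median of the compared HIF targets (1.06 over 22 genes, 12 called higher) was above 0 in all 17 settings. The genes compared differed by setting, from 10 in thinned cells to 55 with no minimum. The median was lowest at 0.55 without both aldolases (5 called). That ranking within depth groups gave 0.77 (3 called), and ranking without Aldoa 0.78 (7 called). It was highest at 1.49 in thinned cells.

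By the other 6, Aldoc was 0.96 with equal cell weight, 1.66 with the wider mitochondrial limit and 0.99 without dividing cells. Aldoa was 0.45 thinned, 1.45 with the wider limit and 0.55 without dividing cells. Thinned, Egln3 was 0.10 and Car9 -2.79. Genes shared with the lesion were 0 higher and 11 lower thinned, and 2 and 7 on separate UMIs. Tumor over lesion was 2.74 with the wider limit.

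Of the named genes' alternatives 27 reversed. Without both aldolases they were Zscan26 (-1.20), Cdc20 (0.20), Birc5 (1.05), Cdca8 (0.73), Cenpa (0.20), Csn1s2a (0.80), Dusp6 (-0.50), Etv1 (-0.41), Dut (0.52), Pdia3 (0.20), S100a6 (0.66) and Malat1 (0.14). With depth groups they were Zscan26 (-1.01), Csn1s2a (1.53), Dusp6 (-0.16), Pdia3 (1.11) and Hspa5 (0.54). Without dividing cells they were Csn1s2a (0.22), Tyms (0.44), Tk1 (0.44), Car2 (0.19) and Malat1 (0.13). Tyms and Tk1 had 4 and 2 UMIs each there (-2.21 to 4.05), under the minimum of 20. Tk1 was also a marker used to leave the dividing cells out. With the wider mitochondrial limit they were Etv1 (-0.66), Jund (-0.25) and Car2 (0.12). Aars was 0.22 on separate UMIs and Sqstm1 -0.13 without Aldoa in the ranking.

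No paired analysis was possible because each group has 1 library. Depth limits Car9, Pfkp and every gene under 20 counts, and the spread between mice is unknown.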

Other observations

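Genes outside the lists, chosen after their values were seen, add to the description of the aldolase-high cells. Txnip, an inhibitor of glucose uptake that rises with cellular glucose, had 84 UMIs in aldolase-high and 28 in aldolase-low cells (log2 ratio 1.36, 0.75 to 2.05). Pik3r1, the regulatory subunit of phosphoinositide kinase, had 58 and 14 UMIs, the mTOR inhibitor Deptor 38 and 10, and the translation inhibitor Pdcd4 72 and 22 (1.48, 0.80 to 2.26). Acadm, a dehydrogenase of fatty acid oxidation, had 29 and 7 UMIs (1.77, 0.62 to 3.28), 1 gene of a pathway for which no list was counted. The microtubule regulator Stmn1 had 34 and 265 UMIs (-3.15, -3.73 to -2.65), the tubulin Tubb5 26 and 188, the histone variant H2afz 53 and 375 and the chromatin protein Hmgb2 19 and 177. Cdkn1c, an inhibitor of the cell cycle, was lower rather than higher in aldolase-high cells, with 7 and 26 UMIs (-2.03, -3.55 to -0.86), and stayed called without the dividing cells (-2.34). In aldolase-low cells it was found in only 2 cells.

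In the late lung, 1 of 60 cells with under 1% mitochondrial UMIs reached the tumor's threshold of 0.877%. It held 6308 UMIs, of which 71 (1.13%) were of the ranking genes: 53 of Aldoa, 11 of Aldoc, 4 of Egln3 and 3 of Pgk1. It also held 346 UMIs of the mammary gene Wfdc18, 42 of Csn3 and 20 of the airway gene Scgb1a1. None of 42 such early lung cells reached the threshold, which leaves an exact 95% upper limit of 8.41%.

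Among the 124 tumor cells with 1% to 20% mitochondrial UMIs, which the ranking left out, 16 reached the threshold, and the 7 genes made up 0.405% of their UMIs, against 0.642% in the ranked cells.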
